A study of Rattus norvegicus with 547 samples.

Results

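The 275 array probe sets described here are those whose log2 signal was lost most over 24 h of hepatocyte culture with solvent. They were chosen by 1 rule: the mean over all solvent control arrays minus the mean over all arrays from the start of incubation (T0) was -1.2 or less on the log2 scale. Of the 31042 probe sets in the table that are not array controls, 277 met the threshold, and 2 of these (losses of -3.51 and -2.97) were left out because the rule names them as exceptions. No table used here links a probe set to its gene. Members are therefore given by their IDs, the roles of the genes behind them are not given, and the hepatocyte label was not checked against marker genes. Several probe sets can report the same gene, so 275 members are not 275 independent measurements.

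Hepatocytes that leave the liver and enter culture are known to lose part of their specialised expression, such as that of drug-metabolising enzymes and transporters, over hours to days. Sandwich culture, in which the cells lie between layers of matrix, is used to slow this loss. Many liver genes are also under the control of nuclear receptors and stress pathways that drugs and toxicants engage, so a compound can move a transcript further in the direction of the culture change or back from it.

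All cells were hepatocytes of male Wistar rats kept as sandwich cultures in 6-well dishes, and gene expression was read from biotin-labelled total RNA on 547 arrays. T0 cells (34 arrays) were collected on the morning after isolation and received neither solvent nor compound, solvent control cells (256 arrays) were cultured with solvent for 24 h, and treated cells (257 arrays) with 1 of 29 compounds for the same time. Each compound was used at a high, middle and low concentration. Replicates were cells of different rats isolated on different days, with treated and solvent wells in the same dish. This gave 256 dishes in 86 comparisons. There were 3 dishes per comparison, except 2 for prazosin (Praz) and 3-methylcholanthrene (3-MC) at the high level, and the high level of dehydroepiandrosterone (DEHA) was not analysed here. Its middle level is taken as its highest. Which rat a T0 array came from, and which compounds were tested on that rat's cells, is not in the labels. They class 9 compounds as genotoxic, 11 as non-genotoxic and 9 as non-carcinogens.

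The values are log2 expression levels. Their precision is limited by how many arrays a group has. A batch of 145 arrays had array medians under 5.4 on the log2 scale (11 T0 and 67 solvent control arrays among them), 16 arrays lacked the hybridisation spike-in signal, and 5 arrays had a median correlation under 0.93 with the others. These limits were set after the values were seen. The 5 arrays were acetaminophen high treated replicate 1, DEHA middle control replicate 1, N-nitrosopiperidine high control replicate 2, T0 replicate 19 and methylendianiline high treated replicate 3. Results that rest on them are given below with and without them.

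In T0 cells the members were bright. Their T0 means ran from 4.88 to 13.26 with a median of 8.98, and their solvent control means from 3.32 to 11.57 with a median of 7.22. The loss, control minus T0, had a median of -1.60 and reached -4.26, while the median over all 31042 probe sets was 0.00. A loss of -2 or more was seen for 70 members and one of -3 or more for 8. These values chose the members and are given as a description. T0 cells had neither the 24 h of culture nor the solvent, so culture time and solvent cannot be told apart in the loss. In bulk RNA, fewer cells of a type and less RNA per cell cannot be told apart, and that holds for every level below.

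Among the members, 53 had a control mean below the control median of all probe sets (5.45), so further decreases of these 53 start from a dim signal. The members also varied more between arrays than other probe sets did. Their median SD was 0.70 over T0 arrays and 0.54 over control arrays, where all probe sets had 0.33 and 0.29. Only 16 members had every T0 array above every control array. The same was true of 16 of all probe sets (0.0515%), and nothing is read from this since the rule used that contrast. Without the 5 arrays these counts were 38 and 40.

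At the threshold itself, the 3 members just inside were 1370363_at (-1.202), 1370883_at (-1.201) and 1377051_at (-1.201). The 3 probe sets just outside were 1389659_at (-1.1999), 1374171_at (-1.192) and 1387093_at (-1.191).

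The largest loss was that of 1385397_at. It lay between 9.03 and 11.89 (median 11.08) on the 34 T0 arrays and between 2.93 and 8.84 (median 6.86) on the 256 control arrays. No control array reached the lowest T0 array. The next, 1369111_at, lay between 8.02 and 12.25 (median 10.83) at T0 and between 4.72 and 9.24 (median 7.38) in control cells, so its ranges overlapped, although without T0 replicate 19 the lowest T0 array was at 9.247, above every control array. The losses were -4.26 and -3.44.

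The loss was present in both array batches, at different sizes. Every one of the 275 members was lower in control than in T0 cells within the batch of lower medians (median loss -1.97) and within the other arrays (median loss -1.46). Taken alone, 256 members met the threshold in the first and 203 in the second. The arrays of both batches chose the members, so these values are a description and nothing is read from them. The median over the members of an array lay between 9.40 and 9.997 on T0 arrays of the batch and between 7.82 and 9.06 on the other T0 arrays, where T0 replicate 19 was the lowest. Without that array, 288 probe sets met the threshold. Control arrays lay between 7.14 and 8.13 in the batch and between 6.15 and 7.70 outside it, and treated arrays between 7.24 and 8.31 and between 5.77 and 7.98. Within each batch every T0 array was above every control array, again on arrays that chose the members. Treated arrays covered nearly the same range as control arrays, and outside the batch the highest treated array was above T0 replicate 19.

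**Figure D1:**
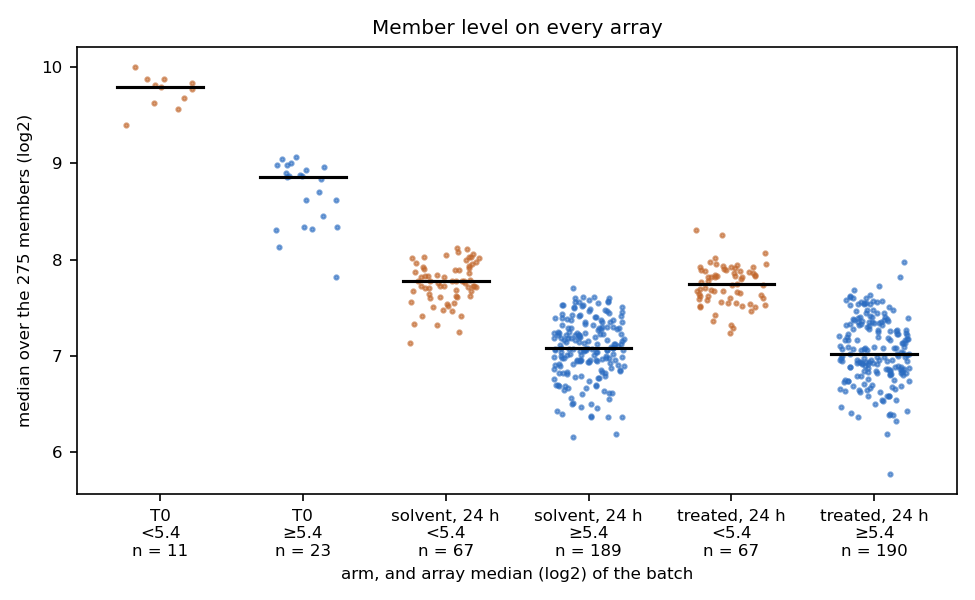
Median log2 level over the 275 members on each array (points), by T0, solvent control and treated arrays and by array batch (array median under 5.4, or 5.4 and above). Black bars are group medians. T0 arrays of a batch lie above the solvent control arrays of the same batch, and control and treated arrays overlap. The T0 and control arrays chose the members, so their order is a description.

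The comparison that the rule did not use is treated against solvent within dishes. It asked, for each compound, whether the members were lowered further or brought back toward T0. Changes are treated minus solvent on the log2 scale. Members are called lower or higher where limma's adjusted p, taken over all 31042 probe sets, was under 0.05. The control arrays of a compound are also among the 256 that chose the members. When they were left out of the choice for that compound, between 267 and 284 probe sets met the threshold, and the calls at the highest level came to 717 lower and 678 higher in place of the values below.

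The members responded to compounds in both directions. At the highest concentration, 714 of 7975 pairs of member and compound were called lower (8.95%, against 3.15% of all such pairs over all probe sets) and 671 higher (8.41% against 2.71%). Without the 5 arrays that stand apart these counts were 724 (9.08% against 2.93%) and 694 (8.7% against 2.51%). With all arrays, 235 lower and 294 higher calls were changes of at least 2-fold. No share of 2-fold changes over all probe sets was taken, here or for the compounds below, so these counts are a description. At least 10 members were called in 17 compounds and 0 in 7, or 18 and 6 without the 5 arrays. The counts rest on the replicates: without replicate 2 they were 387 lower and 347 higher. Counts given below for other fits, such as without a replicate, have no share over all probe sets unless it is printed. A drop in them is not read as particular to the members. The pooled shares mix compounds with many and few calls, so each compound is set against its own share below. No share over all probe sets is matched for signal level, and 226 members were above the median level of all probe sets.

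Averaged over the dishes of a compound, the median change of the members ran from -0.57 to 0.57 at the highest level. The lowest, that of acetaminophen, rests on 1 array that stands apart. Without the 5 arrays the medians ran from -0.44, that of Wy-14643, to 0.57. The median was below 0 in 16 compounds (17 without the 5 arrays), and in 9 of these (10) every dish was below 0. In 8 compounds every dish was above 0, with or without them. Beside the loss of -1.60 these are partial changes. As a share of each member's own loss, the median change of ibuprofen amounted to 32.4% ± 14.8 (SD, n = 3 dishes) regained, and that of Wy-14643 to -25.0% ± 5.7, a further loss. The loss in these shares is that over all arrays. All ibuprofen arrays were in the batch of lower medians, where the median loss was larger (-1.97), and no share of the loss within the batch was taken.

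**Figure D2:**
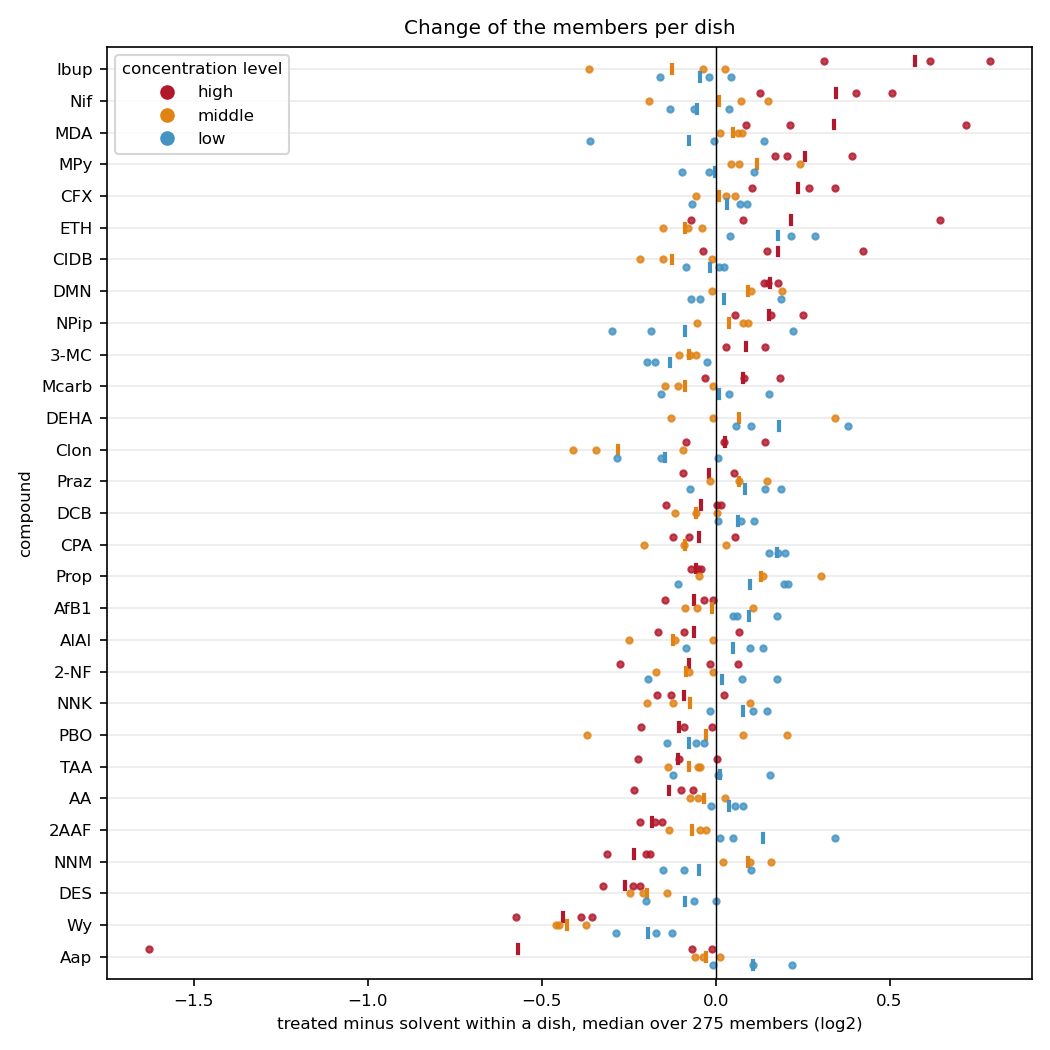
Median change (treated minus solvent, log2) over the 275 members in each dish (points) and its mean over dishes (ticks), by compound and concentration level. At the high level ibuprofen, nifedipine, methylendianiline, methapyrilene and cefuroxime lie to the right in every dish and Wy-14643, diethylstilbestrol, N-nitrosomorpholine and 2AAF to the left. One acetaminophen dish is at -1.63.

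Wy-14643 (Wy), an activator of the nuclear receptor PPAR-alpha, lowered more members than any other compound. At 540.43 µM, 131 members were called lower (47.6%, against 8.51% of all probe sets) and 23 higher (8.36% against 7.82%). The lower calls included 70 of at least 2-fold. The 3 dishes had median member changes of -0.57, -0.39 and -0.36, while the median over all probe sets was 0.05. Without replicate 2, 82 members were called lower and 10 higher. The array's own control probe sets for beta-actin and GAPDH also fell in these dishes, by 0.68 and 0.94 on average, and their part in the result was not tested.

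The further loss under Wy-14643 was present at every concentration. At 180.14 µM 79 members were called lower (2.11% of all probe sets) and 5 higher (0.606%), with a median of -0.43 ± 0.05 (SD, n = 3). At 60.05 µM 44 were lower (0.921%) and 5 higher (1.18%), with -0.20 ± 0.08. Without replicate 2 the lower counts were 14 and 7, and without replicate 3 they were 41 and 19. With no pairing by dish 22 were lower at 60.05 µM. In the dishes of that level the difference between the GAPDH 3' and 5' probe sets fell by 0.70 on average, and its part in the result was not tested. In the difference between the high and the low concentration, 69 members were called lower at the high level (5.93% of all probe sets) and 20 higher (4.01%).

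The largest fall under Wy-14643 was that of 1387893_at. Its values were 8.87, 8.81 and 8.64 in solvent and 5.65, 5.85 and 5.74 in treated wells, and the groups were far apart. Its change was -3.03 ± 0.12 (SE, adjusted p 2.74e-08), and the middle level gave -1.71 and the low level -0.87. In 1383833_at the values 7.81, 7.47 and 7.48 went to 4.18, 4.98 and 5.04, a change of -2.85 ± 0.22 (adjusted p 4.21e-06). All treated wells of both members were below the 34 T0 arrays, whose lowest values were 6.38 and 6.998 (9.29 and 7.36 without T0 replicate 19). The member with the largest loss, 1385397_at, changed by -2.70, -1.80 and -1.25 from the high to the low level, and all of these were called.

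Some members rose under Wy-14643. The values of 1387455_a_at were 3.66, 4.32 and 4.75 in solvent and 7.65, 7.66 and 7.51 in treated wells, and its change was 3.37 ± 0.24 (SE, adjusted p 2.01e-06). Treated wells were thus above its T0 mean of 7.41. In 1370902_at the change of 3.41 came with 6.77, 8.29 and 7.99 in solvent and 9.61, 12.02 and 11.64 in treated wells, where replicate 1 was the lowest on both sides. Of the 23 members called higher, 5 had a treated mean at or above the mean of all T0 arrays.

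Diethylstilbestrol (DES), a synthetic oestrogen, also lowered the members. At 12.15 µM 91 were called lower (33.1%, against 3.76% of all probe sets) and 7 higher (2.55% against 5.26%), 27 and 1 of them by at least 2-fold. Dish medians were -0.32, -0.22 and -0.24, and the median change went from -0.09 ± 0.10 (SD, n = 3) at 1.35 µM to -0.20 ± 0.06 at 4.05 µM and -0.26 ± 0.06 at 12.15 µM. Without replicate 2, 41 were called lower. At the middle level 7 were lower (0.177% of all probe sets) and 1 higher (0.00644%), and at the low level 0 (0%) and 1 (0.00322%). With no pairing by dish 0 were called at either. The high level was below the low one in 22 members (0.683%) and above it in 2 (0.309%).

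In DES dishes 1367988_at went from 9.38, 9.31 and 9.10 to 7.13, 7.18 and 7.32, a change of -2.05 ± 0.19 (SE, adjusted p 1.79e-05). All its solvent values were above all its treated values, and 1370363_at fell likewise by 1.94. Against this, 1370902_at rose from 7.41, 7.06 and 7.34 to 8.85, 8.85 and 8.46 (1.45 ± 0.17, adjusted p 0.000148). That member rose under both Wy-14643 and DES while most called members fell.

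N-nitrosomorpholine (NNM), a nitrosamine that alkylates DNA after metabolic activation, had 100 members called lower (36.4%, against 18.9% of all probe sets) and 9 higher (3.27% against 23.9%) at 152.33 µM. Only 13 of the lower calls were 2-fold or more. Dish medians were -0.31, -0.19 and -0.20. The control arrays of replicates 1 and 2 were in the batch of lower medians and no treated array was. Dish 3, with both arrays outside it, had -0.20. With batch and spike-in signal as terms 1 member was called lower and 0 higher, a fit whose value at this level rests on the dish 3 difference alone. After quantile normalization 60 were called lower and the median change was -0.10, and without replicate 2 46 were lower. At the middle level, where all arrays were in the batch, the dish medians were 0.10, 0.16 and 0.02, with 4 members lower (0.854% of all probe sets) and 6 higher (0.428%), or 6 and 17 with no pairing by dish.

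Of single members in NNM dishes, 1368117_at had 8.08, 8.18 and 7.92 in solvent and 6.06, 5.81 and 6.03 in treated wells, which did not overlap. Its change was -2.10 ± 0.12 (SE, adjusted p 3.84e-06), with -0.82 at the middle level (adjusted p 0.00981). It also fell under the tobacco nitrosamine NNK at 1000 µM, by 1.23 ± 0.11 (adjusted p 7.87e-06). The member 1379365_at rose by 0.66 ± 0.09 in NNM dishes (adjusted p 0.000322).

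Ibuprofen (Ibup), an inhibitor of the cyclooxygenases, brought many members back toward T0. At 920 µM 125 members were called higher (45.5%, against 6.42% of all probe sets) and 24 lower (8.73% against 10.7%), and 86 of the rises were at least 2-fold. Dish medians were 0.31, 0.79 and 0.62, while the median over all probe sets was 0.05. Among all probe sets more were called lower than higher under ibuprofen, and among the members the order was the opposite. With all dishes this was the highest count of any compound. Without replicate 2, 86 were called higher and MDA had more (103), and without replicate 3, 82, where cefuroxime (107) and MDA (86) had more. GAPDH fell by 0.70 on average in the same dishes, and its part in the result was not tested.

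At the lower concentrations of ibuprofen few members were called. At 306.67 µM 3 were higher (1.36% of all probe sets) and 6 lower (0.519%), and at 102 µM 6 (0.409%) and 6 (0.209%). Between the high and the low concentration 69 members were higher at the high level (1.37% of all probe sets) and 7 lower (2.71%). All arrays of ibuprofen were in the batch of lower medians, whose T0 arrays were brighter in the members. Of the 125 raised members, 28 had a treated mean at or above the mean of all 34 T0 arrays, and 3 at or above that of the 11 T0 arrays of the batch.

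The largest rise under ibuprofen was that of 1374932_at, from 9.29, 9.33 and 9.16 to 12.21, 11.85 and 11.81 (2.69 ± 0.15 SE, adjusted p 9e-06). Its treated wells were above the highest T0 array, at 11.52. The second, 1368934_at, had 7.83, 8.42 and 7.94 in solvent and 10.05, 10.07 and 10.25 in treated wells, a change of 2.06 ± 0.27 (adjusted p 0.000712). Its change was larger at the lower concentrations (2.84 for 306.67 µM, 3.76 for 102 µM). High and low differed past the threshold (-1.70 ± 0.39, adjusted p 0.0335). In the other direction 1384392_at fell from 6.61, 7.17 and 7.47 to 4.61, 5.29 and 4.80 (-2.18 ± 0.21, adjusted p 0.000121), and its solvent and treated values did not overlap.

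Methylendianiline (MDA), an aromatic amine used to make polymers, had 105 members called higher (38.2%, against 7.67% of all probe sets) and 18 lower (6.55% against 12%) at 9.81 µM. The dishes differed widely, with medians of 0.21, 0.72 and 0.09 beside a median of 0.11 over all probe sets. Treated replicates 1 and 3 lacked spike-in signal, and replicate 3 was 1 of the 5 arrays that stand apart. Dish 2, where both arrays had the signal, held the largest value. Without replicate 3 at that level 93 members were called higher (33.8%, against 1.06% of all probe sets) and 5 lower (1.82% against 3.35%), and without replicate 1 56 and 1. With batch and spike-in signal as terms 112 were higher and 1 lower. At 3.27 and 1.09 µM limma called 0 members (0% of all probe sets), and 34 (12.4%, against 3.8% of all probe sets) and 89 (32.4% against 12.7%) had an unadjusted p under 0.05. In all, 44 were higher at the high than at the low concentration (0.319% of all probe sets) against 1 lower (1.14%). Without the array that stands apart these were 6 (0.0483%) and 0 (0.148%).

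Under MDA, 1373686_at went from 6.31, 7.56 and 7.51 to 9.31, 9.49 and 9.42, a change of 2.28 ± 0.25 (SE, adjusted p 0.00018), or 2.46 ± 0.30 (adjusted p 0.00234) without the array that stands apart. The treated values were close to its mean of 9.34 over all T0 arrays. They were above its mean of 8.84 on the T0 arrays outside the batch of lower medians. In 1384392_at the values 6.497, 6.92 and 7.06 went to 7.98, 9.87 and 9.37, with treated replicate 1 the lowest (2.24 ± 0.23, adjusted p 0.000122). Without treated replicate 3, the array that stands apart, its change was 2.21 ± 0.29 (adjusted p 0.00311). That member fell under ibuprofen. Of the 105 raised members, 17 had a treated mean at or above the mean of all T0 arrays and 31 at or above that of the T0 arrays outside the batch, to which the MDA arrays belong. Without the arrays that stand apart 15 and 24 of the 93 did.

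Methapyrilene (MPy), an antihistamine withdrawn for its liver toxicity in rats, raised and lowered members. At 44.39 µM 90 were called higher (32.7%, against 4.27% of all probe sets) and 46 lower (16.7% against 9.3%). Dish medians were 0.20, 0.17 and 0.39. At 14.78 µM 53 were higher (1.82% of all probe sets) and 26 lower (3.63%), and at 1.92 µM 0 (0%) and 1 (0.00322%). Without replicate 1 the counts at 44.39 µM were 58 higher and 29 lower, and without replicate 2 41 and 24. At 14.78 µM they were 5 and 8, and 2 and 8. Beta-actin and GAPDH were higher by 0.38 and 0.43 on average in the dishes at 14.78 µM, and their part in the result was not tested.

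In methapyrilene dishes 1370902_at rose from 8.73, 8.71 and 8.77 to 10.07, 10.34 and 11.03 (1.74 ± 0.15 SE, adjusted p 1.29e-05), with 0.71 at the middle level. Among the falls, 1371258_at went from 10.34, 10.23 and 10.26 to 8.73, 8.08 and 7.80 (-2.07 ± 0.15, adjusted p 3.18e-06), and the middle and low levels gave -1.09 and 0.00. Neither member had overlapping solvent and treated values at the high level.

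Cefuroxime (CFX), a cephalosporin antibiotic, had 77 members called higher (28%, against 4.69% of all probe sets) and 15 lower (5.45% against 3.59%) at 679.09 µM, with dish medians of 0.34, 0.27 and 0.10. Without replicate 1, 29 were higher, and without replicate 2, 32. At 226.36 µM 4 were higher (0.499% of all probe sets) and 11 lower (1.3%), 0 of each without replicate 1 or without replicate 2, and 4 and 18 with no pairing by dish. The values of 1383744_at were 6.97, 7.07 and 8.12 in solvent and 9.88, 10.09 and 10.10 in treated wells (2.64 ± 0.17 SE, adjusted p 5.98e-06), above its T0 mean of 9.26. By contrast 1383600_at fell from 9.86, 10.17 and 9.62 to 8.53, 8.39 and 8.11, a change of -1.54 ± 0.12 (adjusted p 2.21e-05). Its T0 mean was 11.49, so the treated wells were further from T0 than the solvent wells were.

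C.I. Direct Black (CIDB), an azo dye, had 61 members higher (22.2%, against 7.23% of all probe sets) and 17 lower (6.18% against 3.35%) at 17.28 µM. Its dish medians, 0.42, 0.15 and -0.04, lay on both sides of 0. After quantile normalization the counts were 50 higher and 26 lower, without replicate 2 they were 21 and 6, and without replicate 1 45 and 40. Limma called 0 members at the lower concentrations, where 48 (middle; 17.5%, against 3.9% of all probe sets) and 21 (low; 7.64% against 7.34%) had an unadjusted p under 0.05. By the adjusted p, 0.00322% of all probe sets were lower and 0.0161% higher at 5.76 µM, and 0% and 0.00322% at 1.92 µM. The member 1384392_at rose from 6.80, 7.33 and 7.29 to 9.27, 9.61 and 9.25 (2.24 ± 0.12 SE, adjusted p 5.28e-08), and the groups did not overlap.

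Nifedipine (Nif), a calcium channel blocker, had 29 members called higher (10.5%, against 0.67% of all probe sets) and 0 lower (0.126%) at 600 µM. Its dish medians were 0.51, 0.40 and 0.13. Without replicate 1, 11 members were higher and without replicate 2 only 1, and after quantile normalization 16 were higher and 1 lower. With no pairing by dish 11 were higher and 0 lower. At 200 µM 18 were higher (0.673% of all probe sets) and 10 lower (0.944%), 3 and 1 without replicate 2, 9 and 2 without replicate 3 and 7 and 5 with no pairing. Beta-actin fell by 0.38 on average at 200 µM, and its part was not tested. At 600 µM 47 of the 275 members had a mean change below 0, against 55.7% of all probe sets. Of these 47, 7 had an unadjusted p under 0.05, a mark that 17.3% of all probe sets reached in either direction.

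The member 1387583_at gave the largest single rise under nifedipine. It had 4.86, 5.10 and 4.76 in solvent and 8.82, 9.11 and 8.71 in treated wells, and its change was 3.98 ± 0.19 (SE, adjusted p 4.78e-06). At the middle level it was 4.59 (adjusted p 9.72e-07) and at the low level 0.12 (adjusted p 0.999). Its T0 arrays ran from 4.45 to 8.99 with a mean of 7.27, and its 256 control arrays from 3.58 to 5.76. The treated wells were therefore above the T0 mean and above every control array. Piperonylbutoxide (PBO), an insecticide synergist that inhibits cytochrome P450 enzymes, raised the same member at 31.69 µM from 4.45, 4.38 and 4.68 to 6.73, 7.64 and 7.77 (2.88 ± 0.16, adjusted p 1.4e-06). At its middle level the change was 0.32 (adjusted p 0.804).

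**Figure D3:**
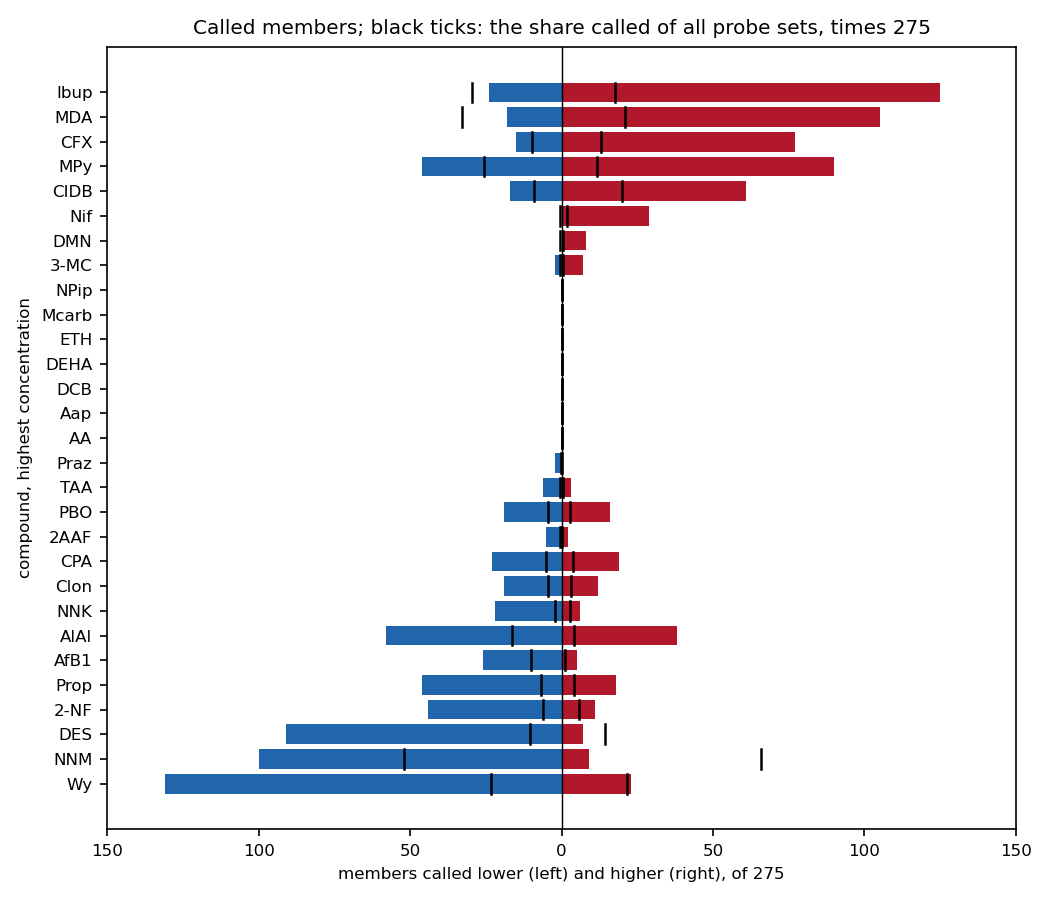
Number of the 275 members called lower (left, blue) and higher (right, red) by limma at the highest concentration of each compound, with a black tick at the share called of all probe sets in that direction times 275. Wy-14643 has 131 members lower and ibuprofen 125 higher, and 7 compounds have 0.

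The members called by different compounds overlapped. These pairs were picked after the counts were seen, and each compound was compared with its own control arrays. Of the 91 members lower under DES, 72 (79.1%) were also lower under Wy-14643, which lowered 47.6% of all members, and they made up 55% of the Wy-14643 set. Of the 105 higher under MDA, 82 (78.1%) were also higher under ibuprofen, which raised 45.5% of all members, and they made up 65.6% of the ibuprofen set. Without the MDA array that stands apart this overlap was 79 of 93 (84.9%, and 63.2% of the ibuprofen set). Ibuprofen shared 71 of the 90 raised by methapyrilene (78.9%, and 56.8% of its own) and 58 of the 77 raised by cefuroxime (75.3% and 46.4%). Some members were in sets of opposite direction. Of the 131 members lower under Wy-14643, 50 (38.2%, against 45.5% of all members) were higher under ibuprofen, which is 40% of the ibuprofen set. Likewise 54 (41.2%, against 38.2% of all members) were higher under MDA, 51.4% of that set, or 48 (36.6% against 33.8%, and 51.6%) without the array that stands apart. Those shares are close to or below the shares of all members.

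**Figure D4:**
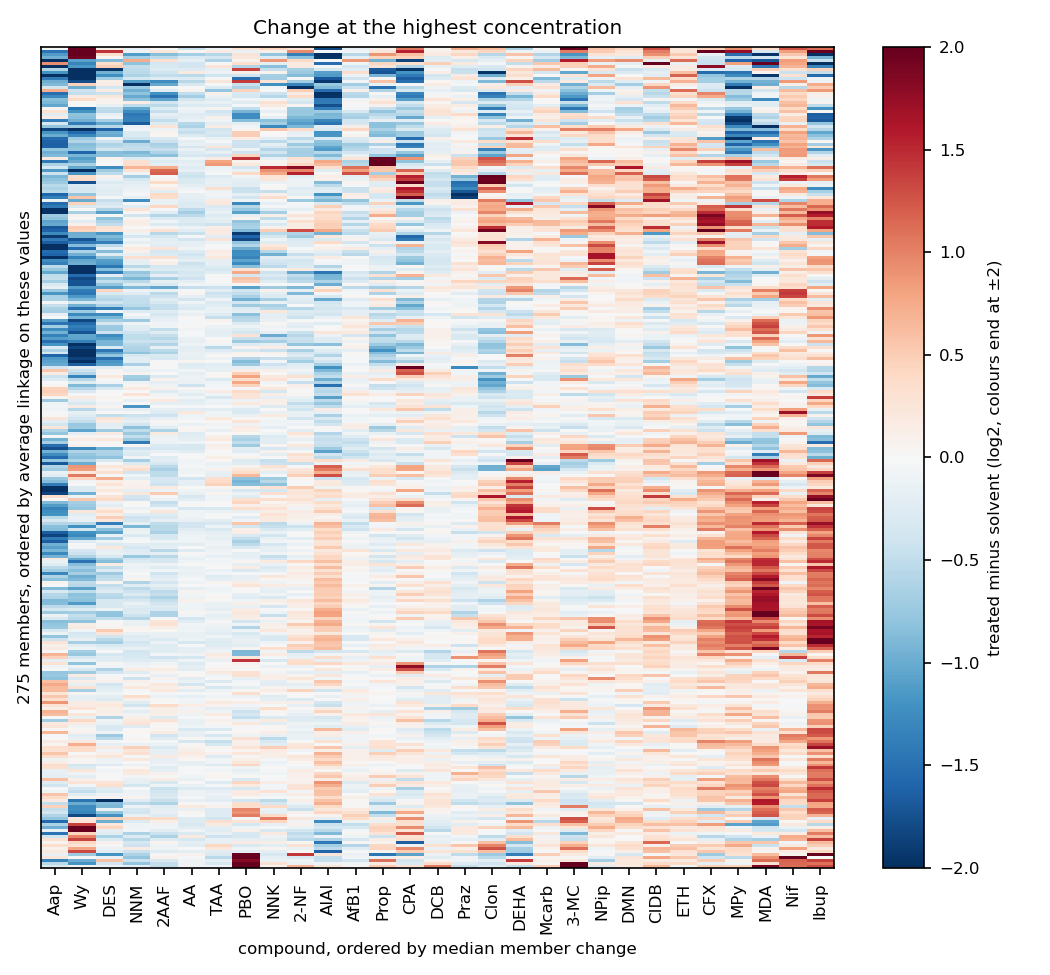
Change at the highest concentration (treated minus solvent, log2, colours end at ±2) of the 275 members (lines, ordered by average linkage on these values) in 29 compounds (columns, ordered by median member change). A block of members is red under ibuprofen, MDA, methapyrilene and cefuroxime, and blocks that are blue under Wy-14643 are partly blue under DES. The order of lines was computed from the values shown and is a description. The acetaminophen column includes the array that stands apart.

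Other compounds lowered a smaller share. Propranolol (Prop), a beta-adrenergic blocker, had 46 members lower (16.7%, against 2.52% of all probe sets) and 18 higher (6.55% against 1.53%) at 42.86 µM. Without replicate 2 these were 19 and 7, and with no pairing by dish 21 and 8. Its dish medians, -0.07, -0.04 and -0.05, were close to 0 and hardly differed from each other. The member 1383600_at fell from 10.03, 9.86 and 9.40 to 8.17, 8.11 and 7.80 (-1.73 ± 0.12 SE, adjusted p 1.11e-07). In the other direction 1367857_at rose from 5.32, 5.15 and 5.19 to 7.81, 7.69 and 7.41 (2.42 ± 0.13, adjusted p 4.59e-09), with 1.13 at 14.29 µM and -0.08 at 4.76 µM. Its treated wells were above its T0 mean of 6.83.

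Allyl alcohol (AlAl), which alcohol dehydrogenase turns into acrolein, had 58 members lower (21.1%, against 5.9% of all probe sets) and 38 higher (13.8% against 1.46%) at 27.69 µM, and 30 of the falls but 3 of the rises were at least 2-fold. After quantile normalization the counts were 54 lower and 55 higher, and without replicate 2 they were 37 and 3. Dish medians were -0.17, -0.09 and 0.07. Limma called 0 members at the lower concentrations, where 82 (middle; 29.8%, against 15.2% of all probe sets) and 27 (low; 9.82% against 7.67%) had an unadjusted p under 0.05. The values of 1387455_a_at were 7.55, 7.69 and 7.25 in solvent and 5.22, 4.98 and 4.58 in treated wells, and its change was -2.57 ± 0.13 (SE, adjusted p 6.69e-07). The same member rose under Wy-14643 and fell under ibuprofen (-2.04) and MDA (-1.96, or -1.64 with an adjusted p of 0.0557 without the array that stands apart). Its solvent level differed between these dishes, from 3.66 to 4.75 with Wy-14643 and from 5.88 to 7.69 with the other 3 compounds.

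The genotoxic compounds 2-nitrofluorene (2-NF) and aflatoxin B1 (AfB1), both activated to DNA-binding forms, called more members lower than higher. At 43.13 µM 2-NF had 44 lower (16%, against 2.19% of all probe sets) and 11 higher (4% against 2.14%), or 15 and 4 without replicate 1. At 0.0028 µM AfB1 had 26 lower (9.45% against 3.67%) and 5 higher (1.82% against 0.361%), but 0 lower without replicate 1 or replicate 2, 16 and 9 after quantile normalization, and 12 and 5 with no pairing by dish. NNK had 22 lower (8% against 0.838%) and 6 higher (2.18% against 1.05%), or 4 and 3 without replicate 2 or replicate 3 and 5 and 4 with no pairing. The member 1379365_at went from 7.07, 6.997 and 6.94 to 8.60, 8.99 and 8.76 with 2-NF (1.78 ± 0.11 SE, adjusted p 4.56e-07). It was called higher in 6 of the 9 genotoxic compounds, by 1.10 with AfB1, 1.498 with NNK and 0.66 with NNM, and in 2 of the 9 non-carcinogens. Among the 11 non-genotoxic compounds it was higher in 0 and lower in 2, Wy-14643 (-1.03) and DES (-1.24). It was singled out after its values were seen.

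Cyproterone acetate (CPA), a steroidal antiandrogen, moved members at every level. It had 23 lower (8.36%, against 1.91% of all probe sets) and 19 higher (6.91% against 1.34%) at 100 µM, 31 (2.61%) and 12 (0.892%) at 33 µM, and 9 (0.87%) and 28 (2.24%) at 1.11 µM. Without replicate 1 these were 9 and 6, 14 and 3, and 5 and 11. At 33 µM the counts were 28 and 19 after quantile normalization, and at 100 µM 15 and 18 with no pairing by dish. The dish medians at the low level, 0.18, 0.15 and 0.20, were all above 0. All arrays of the low level were in the batch of lower medians, and those of the middle and high levels were outside it. Differences between the low level and the others therefore cross the batch, whose part was not tested. The member 1385635_at rose from 4.88, 5.27 and 4.89 to 7.87, 6.97 and 7.60 at 100 µM (2.46 ± 0.23 SE, adjusted p 0.000129), with 2.40 and 1.96 at the lower levels. The high and low changes of this member differed by 0.50 ± 0.33, which was not called.

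Clonidine (Clon), an agonist of alpha adrenergic receptors, moved that member in opposite directions at different concentrations. At 909 µM 1385635_at went from 5.13, 4.95 and 5.70 to 6.81, 7.75 and 8.02 (2.27 ± 0.20 SE, adjusted p 0.000325), and at 303 µM it changed by -1.81 (adjusted p 0.00679). A second member, 1367850_at, changed by 2.03 (adjusted p 0.000795) and -1.48 (adjusted p 0.0205). Clonidine had 19 members lower (6.91%, against 1.59% of all probe sets) and 12 higher (4.36% against 1.08%) at 909 µM, and 19 (0.438%) and 1 (0.0677%) at 303 µM, where the dish medians were -0.34, -0.41 and -0.09. Without replicate 2, 0 were called at either level, while with no pairing by dish the counts were 34 and 22 at 909 µM and 42 and 3 at 303 µM. Beta-actin and GAPDH went the other way between these levels, with mean changes of -0.36 and -0.43 at 909 µM and of 0.42 and 0.35 at 303 µM, and their part in the result was not tested.

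PBO at 31.69 µM had 19 members lower (6.91%, against 1.68% of all probe sets) and 16 higher (5.82% against 0.992%), or 16 and 21 after quantile normalization and 2 and 9 without replicate 2. Beside 1387583_at, 1368934_at rose from 8.06, 7.80 and 7.30 to 10.77, 10.75 and 10.72 (3.03 ± 0.18 SE, adjusted p 1.9e-06), with 3.27 at 10.56 µM. The same member rose under ibuprofen.

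The remaining compounds moved few members at their highest level. Thioacetamide had 6 lower (0.184% of all probe sets) and 3 higher (0.235%), 2-acetylaminofluorene (2AAF) 5 (0.18%) and 2 (0.106%), 3-MC 2 (0.164%) and 7 (0.226%), dimethylnitrosamine 0 (0.139%) and 8 (0.19%), and prazosin 2 (0.0322%) and 0 (0%). With no pairing by dish thioacetamide had 1 and 2 and dimethylnitrosamine 2 and 10. Limma called 0 members for 7 compounds (0% of all probe sets each way, except 0.00322% lower for acetaminophen), and the number with an unadjusted p under 0.05 was 60 for acetamide, 78 for acetaminophen, 18 for 1,4-dichlorobenzene, 43 for DEHA, 54 for ethionine, 42 for methylcarbamate and 59 for N-nitrosopiperidine. Over all probe sets that share was 5.78%, 25.4%, 4.7%, 7.61%, 8.88%, 5.18% and 11.5%. Of the 54 members for ethionine, 53 were higher and 1 lower, and its dish medians were 0.08, -0.07 and 0.65. At that level 1 treated array and 0 control arrays of ethionine were in the batch of lower medians. The part of this in its values was not tested. With no pairing by dish, acetaminophen had 21 members lower and 1 higher and the other 6 compounds 0. Dimethylnitrosamine had dish medians of 0.18, 0.15 and 0.14 and 2AAF of -0.16, -0.17 and -0.22, so the dishes of each were close together. The member 1379365_at rose with dimethylnitrosamine by 1.63 at 1000 µM, 2.31 at 333 µM and 1.51 at 39.19 µM, all called.

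Acetaminophen, an analgesic with a reactive metabolite, had the lowest median of all at 1000 µM, -0.57 ± 0.92 (SD, n = 3), because 1 dish was at -1.63 and the others at -0.07 and -0.01. The treated array of that dish had a median correlation of 0.307 with the other arrays. Without it the median change was -0.04 ± 0.04 (n = 2), and 23 members were called lower (8.36%, against 2.42% of all probe sets) and 35 higher (12.7% against 0.635%). For N-nitrosopiperidine the median was 0.15 with and 0.11 without its array that stands apart, and for DEHA 0.07 and -0.07.

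At the middle level 238 pairs of member and compound were called lower (3.09%, against 0.546% of all pairs) and 140 higher (1.82% against 0.286%). This was over 28 compounds with a high level and DEHA left out. At the low level 86 pairs were lower (1.08% against 0.716%) and 170 higher (2.13% against 0.726%) over 29 compounds. Of the low level rises, 77 came from 2AAF at 0.11 µM (14% of all probe sets, with 18 members lower against 17.7%). All 3 of its control arrays lacked spike-in signal and the treated arrays had it, and without 2AAF 93 rises were left at that level. After quantile normalization 2AAF had 76 higher and 42 lower. GAPDH fell by 0.54 on average in these dishes, and its part in the result was not tested. Acetamide at 111.1 µM had 38 members higher (1.54%) and 2 lower (0.751%), or 4 and 0 without replicate 3, while it had 0 at its higher concentrations. Thioacetamide had 19 lower (1.11%) and 7 higher (0.583%) at 26.22 µM, more than at 78.67 µM, and 11 and 6 with no pairing.

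Elsewhere few members were called below the highest concentration. With dimethylnitrosamine 3 were higher and 0 lower at 333 µM (0.122% and 0.0129% of all probe sets), and 2 and 0 at 39.19 µM (0.0354% and 0.0226%). 2-NF at 14.38 µM had 4 higher and 6 lower (0.11% and 0.544%), and 2AAF at 0.33 µM had 2 and 10 (0.219% and 0.667%). All 3 treated arrays of 2AAF at 0.33 µM lacked spike-in signal and its control arrays had it. The part of this in the calls was not tested. PBO at 10.56 µM had 11 higher and 0 lower (0.358% and 0.0644%). Propranolol had 4 and 0 at 14.29 µM (0.058% and 0%), and 9 and 1 at 4.76 µM (1.24% and 0.0644%). For NNK 1 was higher and 2 lower at 333 µM (0.0226% and 0.0902%), and 1 and 0 at 88 µM (0.226% and 0.00644%). 3-MC had 4 higher and 8 lower at 1.92 µM (0.158% and 0.197%), and 3 and 5 at 0.64 µM (0.0966% and 0.155%). For 1,4-dichlorobenzene 1 was higher at 333 µM (0.00644%). Thioacetamide at 8.74 µM had 0 in either direction (0.0258% of all probe sets in each), and so did nifedipine at 6.94 µM (0.00644% higher, 0% lower). With no pairing by dish propranolol had 1 and 0 at 14.29 µM and 0 at 4.76 µM, NNK had 0 at both, and 3-MC had 7 higher and 3 lower at 1.92 µM.

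The order of the levels varied. From the low to the high concentration the median member change fell step by step in 9 compounds, rose in 6 and did neither in 13. Members higher at the highest than at the low level were most frequent with ibuprofen (69), MDA (44) and C.I. Direct Black (36, against 4.88% of all probe sets). MDA had 6 without its array that stands apart, fewer than C.I. Direct Black. Members lower at the highest level were most frequent with Wy-14643 (69), 2AAF (64, against 9.13%), NNM (53, against 8.86%) and allyl alcohol (42, against 3.21%). The 2AAF and NNM differences involve the control arrays with the spike-in and batch structure given above. The concentration steps differed between compounds, from 600, 200 and 6.94 µM for nifedipine to 540.43, 180.14 and 60.05 µM for Wy-14643, so levels of different compounds are not matched.

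Across compounds, 200 of the 275 members (72.7%) were called lower in at least 1 compound at its highest concentration, where 34.1% of all probe sets were, and 218 (79.3%) higher in at least 1, where 50.2% were. Both directions were seen for 148 members, only falls for 52, only rises for 70 and neither for 5. This split was not counted over all probe sets, so nothing particular to the members is read from it. Without the 5 arrays 200 were lower and 214 higher in at least 1. In at least 5 compounds, 61 members (22.2%, against 5.07% of all probe sets) were lower and 49 (17.8% against 1.38%) higher, or 62 and 60 members without the 5 arrays. Members above the median level of all probe sets (226) had 642 lower and 599 higher calls in 6554 tests, and the 49 dimmer ones 72 and 72 in 1421.

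The member called lower most often was 1383833_at, in 12 compounds. Its T0 arrays ran from 6.998 to 9.60 (median 9.06) and its control arrays from 3.87 to 8.76 (median 7.43), with a mean change of -0.62 over the 29 compounds. The next, 1368877_at, was lower in 11, with a mean of -0.42. Without the 5 arrays they were lower in 13 and 10, and 1368877_at was not called under MDA (-0.90, adjusted p 0.204). Both fell under Wy-14643, DES, NNM, MDA, methapyrilene, cyproterone acetate, propranolol, allyl alcohol and 2-NF. Their calls thus include compounds that raised many other members, such as MDA and methapyrilene.

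Among the 6 members called higher in 8 compounds each, the most for any, 1370902_at and 1387243_at had the largest mean changes, 0.56 and 0.43. On control arrays 1370902_at ran from 6.77 to 9.95 and on T0 arrays from 6.48 to 11.50, and 1387243_at from 6.54 to 9.76 and from 9.10 to 11.98. Without T0 replicate 19 the lowest T0 values were 8.86 and 9.54. Without the 5 arrays 1387243_at was called higher in 9 compounds. The rise of 1387243_at was 2.97 with 3-MC, an activator of the Ah receptor, on 2 dishes, and 2.87 with PBO. The rise of 1370902_at with Wy-14643, 3.41, was its largest. Both rose under 2-NF, C.I. Direct Black, nifedipine and ibuprofen.

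**Figure D5:**
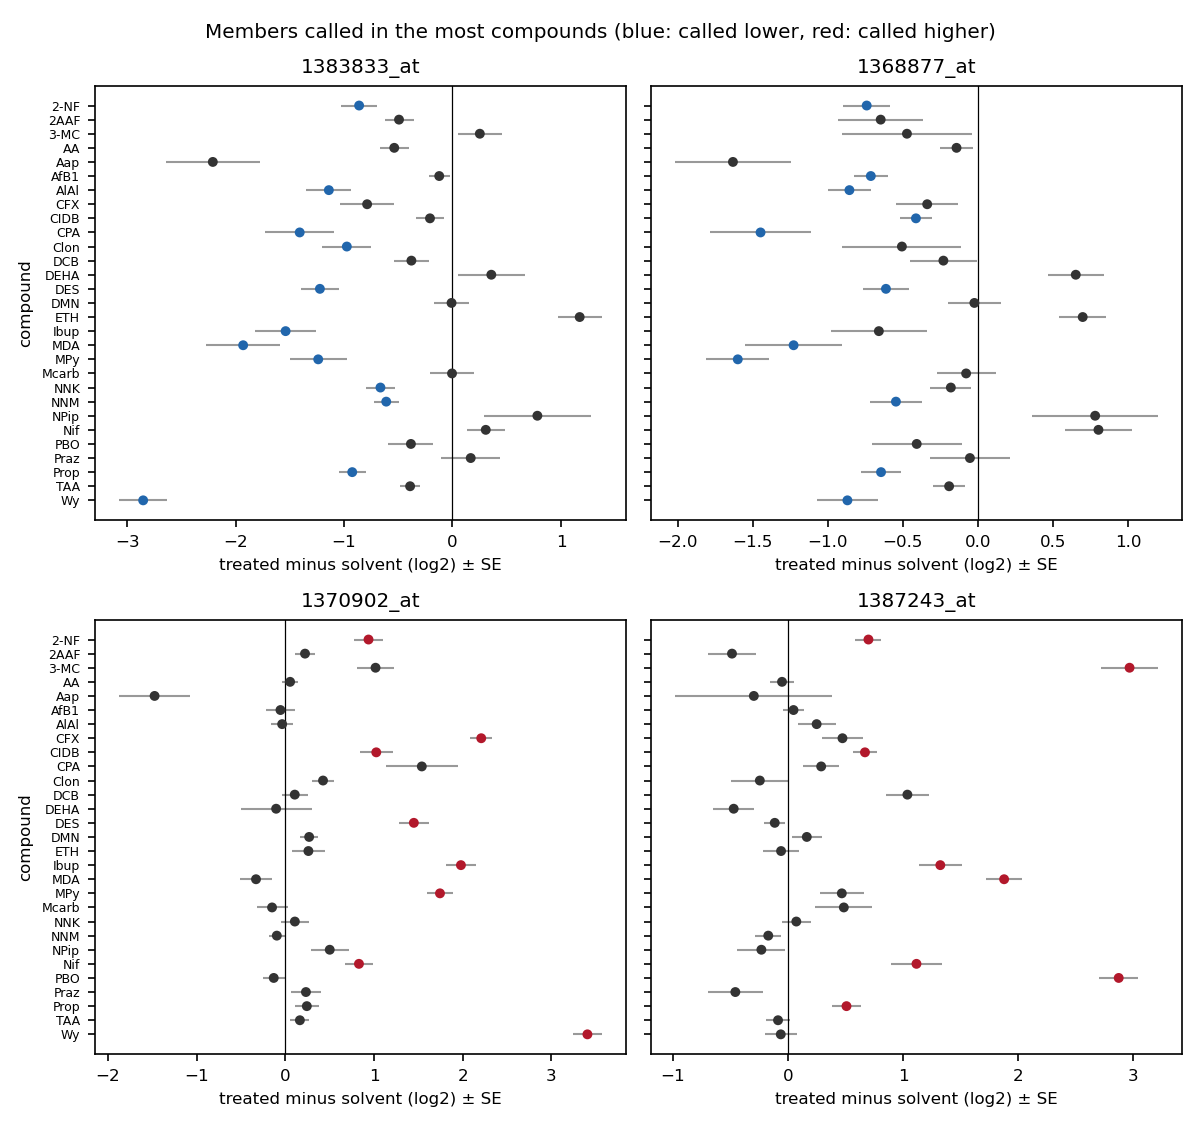
Change (treated minus solvent, log2) with its SE at the highest concentration of each compound for the members called lower in the most compounds (upper panels, blue where called) and higher in the most (lower panels, red where called). The upper members lie below 0 in most compounds and reach -2.85 with Wy-14643 and -1.63 with acetaminophen. The second was not called and includes the array that stands apart (-1.66, adjusted p 0.0659, without it). The lower ones reach 3.41 and 2.97.

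The labelled classes overlapped in their median member change at the highest concentration. The 9 genotoxic compounds ran from -0.23 to 0.34 with a median of -0.06 (to 0.47 without the arrays that stand apart), the 11 non-genotoxic ones from -0.57 to 0.26 with a median of -0.11 (from -0.44, with a median of -0.07, without the arrays that stand apart), and the 9 non-carcinogens from -0.06 to 0.57 with a median of 0.03. Compounds with many raised members were in all classes: MDA and C.I. Direct Black are classed genotoxic, methapyrilene non-genotoxic, and ibuprofen, cefuroxime and nifedipine non-carcinogens. At that level the genotoxic compounds had 232 lower calls (9.37%, against 4.59% of all probe sets) and 207 higher (8.36% against 4.74%). Without NNM, whose lower count was 1 with batch and spike-in terms, these were 132 (6% against 2.8%) and 198 (9% against 2.34%). The non-genotoxic compounds had 316 lower calls (10.4%, against 2.31% of all probe sets) and 158 higher (5.22% against 1.81%). The non-carcinogens had 166 lower calls (6.71%, against 2.74% of all probe sets) and 306 higher (12.4% against 1.79%). No test of the classes was made on the members.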

How the data were processed

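The deposited table holds 1 log2 signal for each probe set on each array, and the scale was read from the range of the values. RMA, the robust multi-array average, is named in the submitters' processing notes. No source used here says which version was used or if all arrays were normalized in 1 run, and array medians ran from 5.24 to 5.76. The 57 control probe sets were left out of the tests. Treated and control arrays with the same compound, level and replicate number were taken as 1 dish, since the design text places both in shared dishes. The numbers paired the arrays weakly: deviations correlated at 0.0457 on average for the same and -0.0207 for different numbers, and in 9 of 84 comparisons every pair exceeded 0.1. For each compound, limma 3.58.1 (R 4.3.3, lmFit and eBayes) was fitted to the dish differences of all levels, with Benjamini-Hochberg adjustment over 31042 probe sets. An SE is limma's moderated standard error. p-values treat all dishes of a compound as independent rats. The design text says that replicates are different rats, but the labels name no rat. The fit has no rat term, so if dishes of different levels shared a rat, neither the p-values nor the level differences allow for it. The T0 contrast was not tested, since it chose the members. Median changes per dish are described without a test.

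Members, lists and tests were chosen with earlier results of these data known. Named members are, for each compound with at least 10 calls, the largest falls and rises that went the same way in every dish, and those called in the most compounds, with at most 2 IDs each way per comparison. As no table used here pairs probe sets with genes, the planned gene lists, cell type markers and promoter motifs were not applied and no sequence is shown. Alternatives were no pairing, quantile normalization, dim probe sets left out, a robust variance trend, batch and spike-in terms, each replicate left out, other membership thresholds and membership without a compound's own controls. Leaving out the 5 arrays that stand apart, 2AAF at the low level, NNM and MDA at the highest level, or T0 replicate 19 was chosen after seeing the data.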

Additional observations from a re-analysis of the deposited data

Results flagged for a closer look

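In 5 compounds every dish of 1 concentration had a median member change above 0 and every dish of another had one below 0. These differences between levels were not tested as medians. With aflatoxin B1 the mean was 0.0961 at the low and -0.0614 at the high level. All low level arrays were in the batch of lower medians and the high level arrays outside it. With N-nitrosomorpholine it was 0.0936 at the middle and -0.234 at the high level, where 2 of 3 control arrays alone were in that batch. With 2-acetylaminofluorene it was 0.136 at the low, -0.069 at the middle and -0.183 at the high level. The low level controls and the middle level treated arrays lacked spike-in signal. With ethionine it was 0.18 at the low and -0.0895 at the middle level. With 3-methylcholanthrene it was 0.086 at the high level (2 dishes), and the middle and low levels gave -0.078 and -0.132.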

How the results depend on the processing

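Of 248 alternative values of 25 results, 214 stayed within 1.5 times the count or within 1 SD of the median. The other 34 moved further. Only medians could be scored as reversed, since a count has no direction, and 0 were. For medians the SD is that over dishes, so a wide spread can hide a shift. Acetaminophen, at -0.57 ± 0.92, counted as within 1 SD at -0.04 without 1 array. With no replicate block no total moved by over 1.5 times: 663 pairs of member and compound were lower and 653 higher at the highest level. Single compounds did move, and their values stand beside the results. Leaving out each replicate gave 387 to 551 lower and 347 to 590 higher calls at the highest level, 76 to 253 and 34 to 155 at the middle and 19 to 154 and 107 to 149 at the low level. For single compounds it gave 82 to 126 (Wy-14643 lower), 46 to 90 (NNM lower), 41 to 91 (DES lower), 37 to 51 (allyl alcohol lower), 82 to 108 (ibuprofen higher), 56 to 103 (MDA higher), 41 to 78 (methapyrilene higher) and 29 to 107 (cefuroxime higher). The NNM lower count was 60 after quantile normalization, with a median of -0.10, and 1 with batch and spike-in terms. The robust variance trend gave 72 higher calls at the middle and 57 lower calls at the low level. A threshold of -1.0 (407 members) gave 1097 lower calls at the highest and 132 lower and 257 higher calls at the low level. A threshold of -1.5 (171 members) gave 447 lower calls at the highest, 144 lower and 89 higher at the middle and 107 higher at the low level. Counts at these thresholds are over other numbers of members. The 2AAF median was -0.23 at the threshold of -1.5. Without 2AAF 93 higher calls were left at the low level. Within the arrays of lower medians 529 probe sets met the rule, within the others 209, and after quantile normalization 296, of which 267 were members. For the other moved values the cause was not tested. Arrays give no counting error. In 53 members the control mean was below the median of all probe sets.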
